A study of Homo sapiens with 6 samples.

Results

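The cluster of miR-106b, miR-93 and miR-25 is a group of 3 microRNA (miRNA) hairpins inside the gene MCM7. Its 6 mature products, miR-106b-5p, miR-106b-3p, miR-93-5p, miR-93-3p, miR-25-3p and miR-25-5p, were taken by name from the small RNA count table, in which all 6 were found among 2656 listed mature miRNAs. All 6 were abundant enough to test, as were 783 miRNAs in all. The libraries came from KPL4, an established human breast adenocarcinoma cell line. One group held 3 libraries of cells in which estrogen receptor β (ERβ) was knocked out and to which exogenous ERβ was added back, called ERβ libraries 1, 2 and 3 here. The other held 3 libraries of the ERβ knockout alone, called knockout libraries S1, S2 and 3, so the knockout was shared by all cells and the added receptor was the labelled difference. The labels name no treatment, no clone number and no knockout cells with an empty vector, so the receptor and any other difference between the cell populations cannot be told apart. Whether the replicates were separate cultures is not stated, and p-values then measure only the spread between these samples, which may be technical.

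MCM7 encodes a subunit of the helicase that opens DNA at replication origins, and its transcription is driven by E2F factors as cells enter the cycle. The miRNAs in its intron are paralogs of the oncogenic miR-17/92a cluster. A miRNA is cut from its hairpin as a duplex, of which either arm (5p or 3p) can be loaded into Argonaute, and the seed at bases 2 to 8 does most of the target pairing. miR-93-5p and miR-106b-5p share a seed with miR-17-5p and are known to repress CDKN1A, an inhibitor of the cell cycle, while miR-25-3p shares its seed with miR-92a-3p and is known to repress BCL2L11, which promotes apoptosis.

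The hairpins lie on the minus strand, as MCM7 does, at chr7:100093993-100094074 (MIR106B), chr7:100093768-100093847 (MIR93) and chr7:100093560-100093643 (MIR25) in GRCh38. All 3 fall in intron 13 of the 15-exon principal transcript of MCM7, an intron of 771 bases, and together span 515 bases (GENCODE release 29). The 6 mature sequences of RefSeq (GRCh38.p14) are shown because the seed decides which other miRNAs they are compared with. The seed is in capitals.
miR-106b-5p: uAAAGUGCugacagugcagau
miR-93-5p: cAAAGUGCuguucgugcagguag
miR-25-3p: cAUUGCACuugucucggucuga
miR-106b-3p: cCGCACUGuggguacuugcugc
miR-93-3p: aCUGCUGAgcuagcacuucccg
miR-25-5p: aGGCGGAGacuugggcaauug

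Among the members, miR-106b-5p and miR-93-5p have the same seed, and they are identical at 16 of 21 compared positions, counted from the 5′ end without gaps. Relatives on other chromosomes match them at as many or more positions. miR-17-5p and miR-20a-5p belong to the miR-17/92a cluster on chromosome 13, and miR-106a-5p and miR-20b-5p to a further paralogous cluster on chromosome X.
miR-17-5p: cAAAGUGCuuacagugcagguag
miR-20a-5p: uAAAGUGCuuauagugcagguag
miR-106a-5p: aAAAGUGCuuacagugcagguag
miR-20b-5p: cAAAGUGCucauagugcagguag

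miR-106b-5p matches miR-17-5p at 18 of 21 positions, and miR-93-5p matches miR-20b-5p at 20 of 23. The closest pair among the relatives, miR-17-5p and miR-106a-5p, match at 22 of 23 and differ only at the first base. miR-106b-5p was also the only member with deposited counts that were not whole, in 3 of 6 libraries. How the authors' counting treated reads that match several such relatives is not stated, so the split of counts among them is uncertain. Among relatives of miR-25-3p, miR-92a-3p matches it at 18 of 22 positions and miR-363-3p at 9 of 22. miR-92a-3p has a hairpin in each of the clusters on chromosomes 13 and X, and its counts do not separate them.
miR-92a-3p: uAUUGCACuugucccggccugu
miR-92b-3p: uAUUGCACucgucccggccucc
miR-32-5p: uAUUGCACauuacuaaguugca
miR-363-3p: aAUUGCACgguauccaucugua

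Levels are given as CPM, which is 1000000 times a count over the library's total scaled by the TMM method. Total counts per library were 10288415 to 14296902 in ERβ cells and 10619000 to 12228519 in knockout cells, and the rarest member, miR-25-5p, had at least 225 counts in every library. Epithelial miRNAs of the miR-200 family, which mark the labelled cell type, summed to 78989 to 83820 CPM in ERβ cells and 81542 to 96531 CPM in knockout cells, with 2 of 5 lower. Lower here means lower in ERβ cells at an edgeR adjusted p under 0.05, which held for 13.3% of all tested miRNAs. The endothelial pair miR-126-3p and miR-126-5p summed to 18133 to 20023 CPM in ERβ cells and 21623 to 23178 CPM in knockout cells, with 1 of 2 lower. Blood markers summed to 18.6 to 21.4 CPM in ERβ cells and 16.9 to 22.3 CPM in knockout cells, and the liver marker miR-122-5p was at 20.1 to 28.7 CPM in ERβ cells and 17.2 to 20.5 CPM in knockout cells. Stromal markers summed to 5.88 to 6.89 CPM in ERβ cells and 10.7 to 13.02 CPM in knockout cells, with 1 of 2 tested lower, and muscle markers to at most 1.27 CPM in ERβ cells and 4.37 CPM in knockout cells, with 1 of 1 tested lower. The neural miR-124-3p was at 0 in 5 of 6 libraries. The part of these markers in the results below was not tested. In material of this kind fewer cells that express a miRNA and less of it per cell cannot be told apart.

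Knockout library S2 stood apart. Over the 783 tested miRNAs its log2 CPM differed from the mean of the other knockout libraries by a median of 0.30 in size, against 0.14 between knockout libraries S1 and 3. The difference moved with base composition. Among 690 tested miRNAs with a RefSeq sequence, the median difference was -0.30 for those with up to 35% GC and 0.43 for those above 65% GC. Between these, it was -0.20 up to 45% GC, 0.0043 up to 55% and 0.41 up to 65%. Pearson's r between GC content and the difference was 0.50 across these miRNAs, which share their libraries and are not independent, against 0.06 for the difference between S1 and 3. In the cluster, miR-106b-5p, with 42.9% GC, was lower in S2 by a log2 difference of -0.72. The other members, with 50.0 to 63.6% GC, were higher in S2, from 0.12 for miR-25-3p to 0.65 for miR-25-5p. Members lay at varied distances from the median at their GC content. miR-106b-5p and miR-93-5p (52.2% GC, at 0.50) lay far from it, and miR-106b-3p (63.6% GC, at 0.31) nearer. The part of base composition in the results was not tested beyond the fit with this trend removed, given below. The members, their ratios, the related lists and the relatives named are given with and without S2, and marker sums as ranges over all libraries. Leaving out each library in turn was planned, but S2 was singled out after its values were seen. Without it only knockout libraries S1 and 3 remain. Intervals and p-values without S2 thus leave out the spread that S2 brings to the knockout group.

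**Figure D1:**
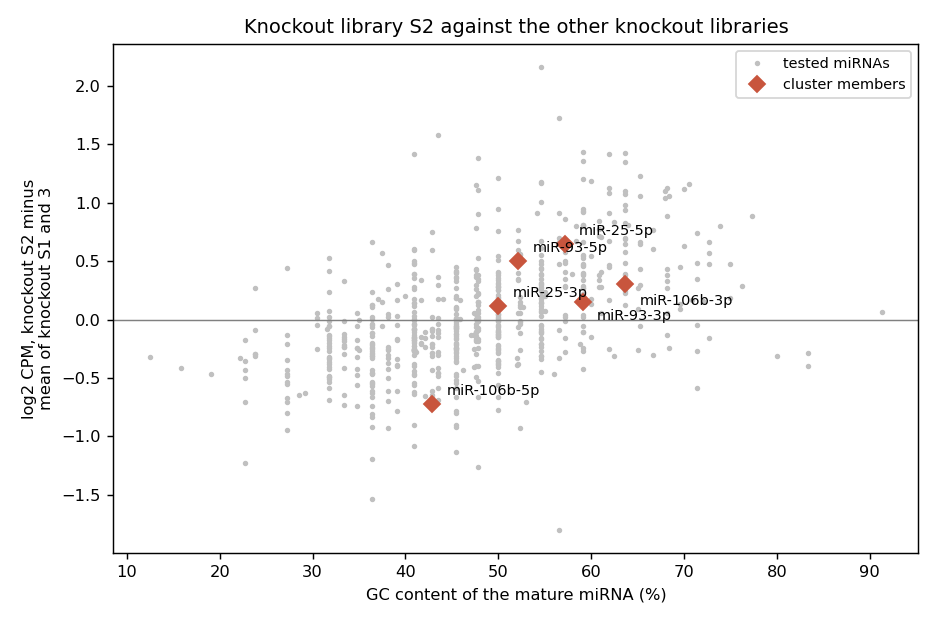
Difference of log2 CPM between knockout library S2 and the mean of knockout libraries S1 and 3 (vertical axis) against the GC content of the mature miRNA in percent (horizontal axis), for 690 tested miRNAs (grey) and the 6 cluster members (diamonds). miR-106b-5p lies at -0.72 and the other members lie above 0.

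With exogenous ERβ, 4 of the 6 cluster products were higher than in knockout libraries S1 and 3, but with library S2 included none of the 6 passed the test. The summed cluster reached 36685, 36970 and 36756 CPM in ERβ libraries 1, 2 and 3, against 29975, 37526 and 28901 CPM in knockout libraries S1, S2 and 3. On this TMM scale the ERβ libraries lay close together, and the knockout libraries on both sides of them. As a share of all counts, without TMM scaling, the summed cluster was 3.83 to 3.96% in ERβ cells and 2.68 to 3.71% in knockout cells. On that scale every ERβ library was above every knockout library, S2 included. TMM factors were 1.04 to 1.08 in ERβ libraries and 0.926 to 0.990 in knockout libraries. By edgeR's quasi-likelihood test, 0 of 6 members had a Benjamini-Hochberg adjusted p under 0.05, against 23.1% of all tested miRNAs. An unadjusted p under 0.05 was found for 2 of 6 members and for 269 of all 783 tested miRNAs, a similar share. DESeq2 and limma-voom each called 0, where 70 and 81 of 783 tested miRNAs were higher and 98 and 104 lower. Without S2, 4 of 6 members were higher and 0 lower, where 15.2% of 800 tested miRNAs were higher, 19.6% lower and 34.9% changed in either direction. Leaving out any other single library gave 0 members called. In those fits 6.12 to 8.71% of all tested miRNAs were higher, and 58 to 88 of 800 to 815 were lower. The median log2 fold change of the members, ERβ over knockout, was 0.19 over all libraries and 0.22 without S2, beside -0.012 and 0.0034 for all tested miRNAs. Levels of 2 of 6 members were higher in ERβ cells with no overlap between the groups, beside 18.9% of all tested miRNAs (39.8% in either direction). Without S2 this held for 4 of 6 members, beside 27.5% (57.7% in either direction).

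**Figure D2:**
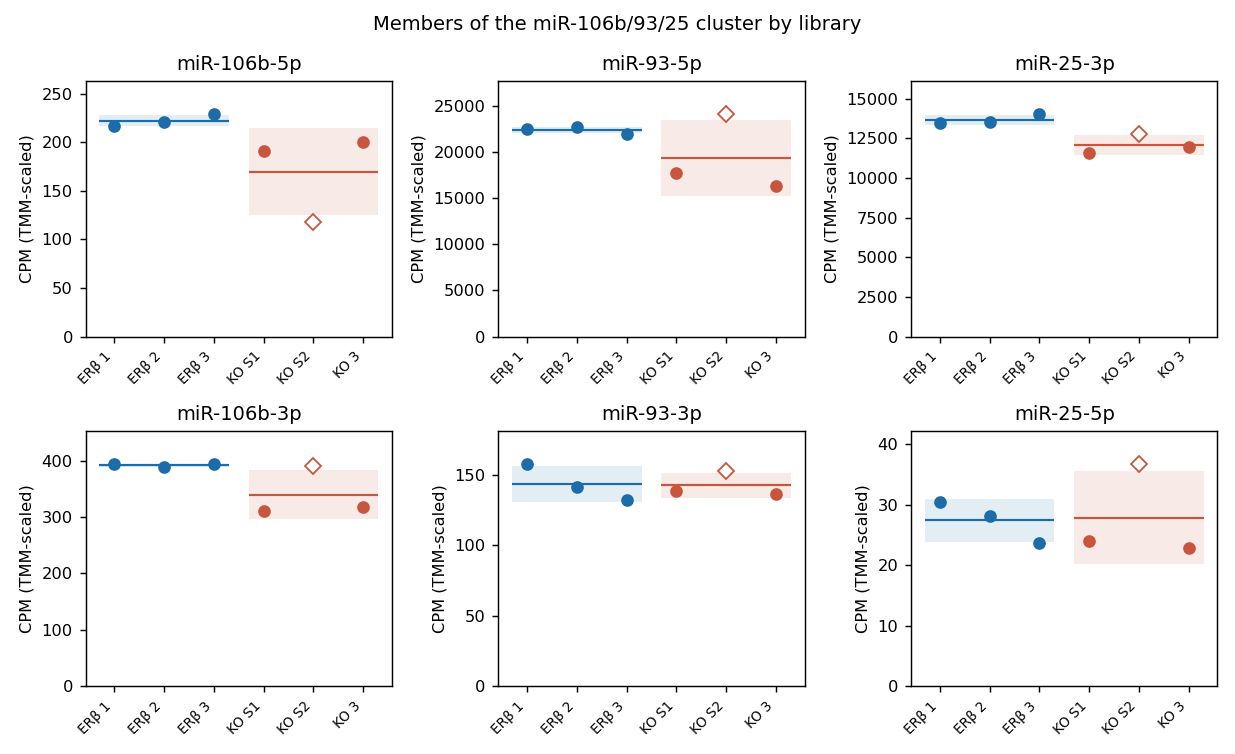
TMM-scaled CPM of each member (vertical axes, starting at 0) in ERβ libraries 1, 2 and 3 and knockout libraries S1, S2 and 3, with the group mean (line) and SD (band); the open diamond is knockout library S2. The diamond sits at 118 CPM for miR-106b-5p, below the other libraries, and at 24062 CPM for miR-93-5p, above them.

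miR-93-5p was the most abundant member and ranked 10 among all listed miRNAs by mean CPM. It had 22458, 22686 and 21974 CPM in ERβ libraries 1, 2 and 3, against 17751, 24062 and 16299 CPM in knockout libraries S1, S2 and 3. S2 was the highest of the 6 libraries and S1 and 3 the lowest. The means were 22373 ± 364 CPM in ERβ cells and 19371 ± 4127 CPM in knockout cells (SD, n = 3 each). The log2 fold change was 0.21 ± 0.13 (standard error; 95% interval -0.08 to 0.50; edgeR quasi-likelihood test, adjusted p = 0.297). Without S2 it was 0.39 ± 0.04 (95% interval 0.31 to 0.48; adjusted p = 1.6e-07), the largest among the members in that fit. With the GC trend removed it was 0.25 (adjusted p = 0.0718).

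miR-25-3p, the other abundant product, ranked 18. It had 13428, 13505 and 14003 CPM in ERβ libraries 1, 2 and 3, against 11560, 12766 and 11924 CPM in knockout libraries S1, S2 and 3. Every ERβ library was above every knockout library, S2 included. The means were 13645 ± 312 CPM in ERβ cells and 12083 ± 619 CPM in knockout cells (SD, n = 3 each). The log2 fold change was 0.18 ± 0.07 (95% interval 0.03 to 0.32; edgeR quasi-likelihood test, adjusted p = 0.0869). It was 0.22 ± 0.04 without S2 (adjusted p = 1.68e-04) and 0.20 with the GC trend removed (adjusted p = 0.0143), so its size moved little while its side of the threshold changed.

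The hairpin of miR-106b gave both arms at comparable levels. It is shown with the arms in capitals, the 5p arm first.
MIR106B: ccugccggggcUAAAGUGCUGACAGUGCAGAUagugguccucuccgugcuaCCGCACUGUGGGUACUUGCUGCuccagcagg

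miR-106b-5p, the arm with the miR-17 seed, had 217, 221 and 229 CPM in ERβ libraries 1, 2 and 3, against 191, 118 and 199.99 CPM in knockout libraries S1, S2 and 3. All ERβ libraries were above all knockout libraries, with S2 far below the rest. The log2 fold change was 0.39 ± 0.17 (95% interval 0.0025 to 0.78; edgeR quasi-likelihood test, adjusted p = 0.144). It was 0.19 ± 0.05 without S2 (adjusted p = 0.00834), so that leaving S2 out made the estimate smaller and brought it past the threshold. With the GC trend removed and S2 kept it was 0.37 (adjusted p = 0.0640). miR-106b-3p, the opposite arm, had 393, 389 and 394 CPM in ERβ libraries 1, 2 and 3, against 311, 390 and 318 CPM in knockout libraries S1, S2 and 3. Here S2 lay within the range of the ERβ libraries. The log2 fold change was 0.21 ± 0.10 (95% interval -0.02 to 0.43; edgeR quasi-likelihood test, adjusted p = 0.172). It was 0.32 ± 0.05 without S2 (adjusted p = 1.92e-05) and 0.32 with the GC trend removed (adjusted p = 0.00429).

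The lesser arms of the other hairpins showed no call in any fit that was run. miR-93-3p had 158, 141 and 133 CPM in ERβ libraries 1, 2 and 3, against 139, 153 and 137 CPM in knockout libraries S1, S2 and 3. The groups overlapped, and the log2 fold change was 0.011 ± 0.098 (95% interval -0.21 to 0.23; edgeR quasi-likelihood test, adjusted p = 0.945). Without S2 it was 0.061 ± 0.066 (95% interval -0.076 to 0.20; adjusted p = 0.508). miR-25-5p had 30.5, 28.1 and 23.6 CPM in ERβ libraries 1, 2 and 3, against 23.9, 36.7 and 22.9 CPM in knockout libraries S1, S2 and 3. Its groups overlapped too, at -0.031 ± 0.19 (95% interval -0.45 to 0.39; adjusted p = 0.915), and its direction turned to 0.22 ± 0.11 without S2 (adjusted p = 0.130). Over all libraries both intervals include the estimates for miR-93-5p and miR-25-3p, 0.21 and 0.18. Without S2 the interval of miR-93-3p lies below the 0.39 of miR-93-5p and the 0.22 of miR-25-3p, a difference that was not itself tested in the fit across miRNAs.

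**Figure D3:**
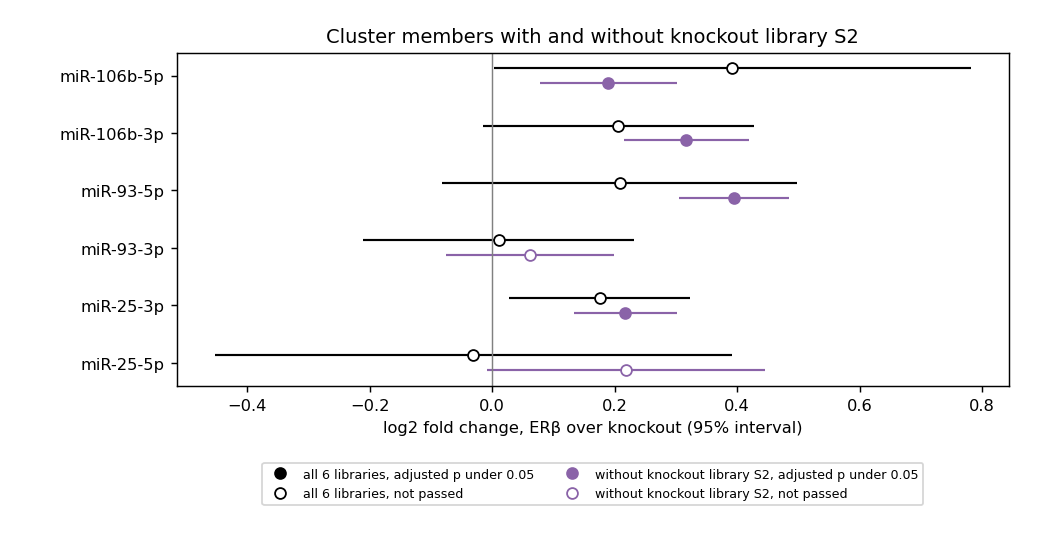
Log2 fold change of each member, ERβ over knockout, with its 95% interval (horizontal axis), over all 6 libraries (black) and without knockout library S2 (purple); filled points have an adjusted p under 0.05. No black point is filled, and the 4 filled purple points lie between 0.19 and 0.39.

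The members differed more from each other than between the groups. miR-93-5p carried 59.8 to 61.4% of the cluster's counts in ERβ cells and 56.4 to 64.1% in knockout cells. miR-25-3p carried 36.5 to 38.1% in ERβ cells and 34.0 to 41.3% in knockout cells. Together they held 97.8 to 97.9% in ERβ cells and 97.7 to 98.1% in knockout cells. Averaged over all 6 libraries, miR-93-5p was 1.62 times as abundant as miR-25-3p, 57.0 times as abundant as miR-106b-3p, 106.4 times as abundant as miR-106b-5p, 146 times as abundant as miR-93-3p and 756 times as abundant as miR-25-5p, all counted over mature products of 21 to 23 bases without length scaling. The members' ranges over the 6 libraries did not overlap, except those of miR-106b-5p and miR-93-3p, whose order in S2, at 118 and 153 CPM, was opposite to that elsewhere. By mean CPM the members ranked between 10 and 281.

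Ratios within a library do not depend on how libraries are scaled, and 7 ratios and shares were set side by side by two-sided exact permutation tests. With 3 libraries against 3 the smallest p such a test can give is 0.1, and 0.2 without S2, so none could pass 0.05. Of these 7, only the miR-25-3p share described below reached 0.1 over all libraries (0.7 after Benjamini-Hochberg adjustment).

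The count of miR-106b-3p over that of miR-106b-5p was 1.81, 1.76 and 1.72 in ERβ libraries 1, 2 and 3, against 1.63, 3.29 and 1.59 in knockout libraries S1, S2 and 3. The 3p arm was the more frequent in every library, and S2 stood far above the others. On the log2 scale the ratio averaged 0.82 ± 0.04 in ERβ cells and 1.03 ± 0.60 in knockout cells (SD, n = 3 each; exact permutation p = 1.0). The difference, ERβ minus knockout, was -0.22 over all libraries and turned to 0.13 without S2 (exact permutation p = 0.2), when all ERβ libraries were above both remaining knockout libraries.

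The count of miR-25-3p over that of miR-93-5p was 0.598, 0.595 and 0.637 in ERβ libraries 1, 2 and 3, against 0.651, 0.531 and 0.732 in knockout libraries S1, S2 and 3. The knockout libraries lay on both sides of the ERβ libraries. The log2 difference was -0.052 over all libraries (exact permutation p = 0.7) and -0.18 without S2 (exact permutation p = 0.2). The count of miR-93-3p over that of miR-93-5p was 0.00703, 0.00623 and 0.00603 in ERβ libraries 1, 2 and 3, against 0.00781, 0.00636 and 0.00839 in knockout libraries S1, S2 and 3, a log2 difference of -0.22 (exact permutation p = 0.2) and of -0.34 without S2 (exact permutation p = 0.2). The difference for miR-25-3p over miR-93-5p turned to 0.053 without knockout library 3 (exact permutation p = 0.8), while that between the miR-93 arms stayed negative, at -0.34 to -0.13, whichever library was left out. The count of miR-25-5p over that of miR-25-3p was 0.00227, 0.00208 and 0.00169 in ERβ libraries 1, 2 and 3, against 0.00207, 0.00288 and 0.00192 in knockout libraries S1, S2 and 3. Its log2 difference was -0.17 over all libraries (exact permutation p = 0.6) and 0.0012 without S2 (exact permutation p = 1.0).

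**Figure D4:**
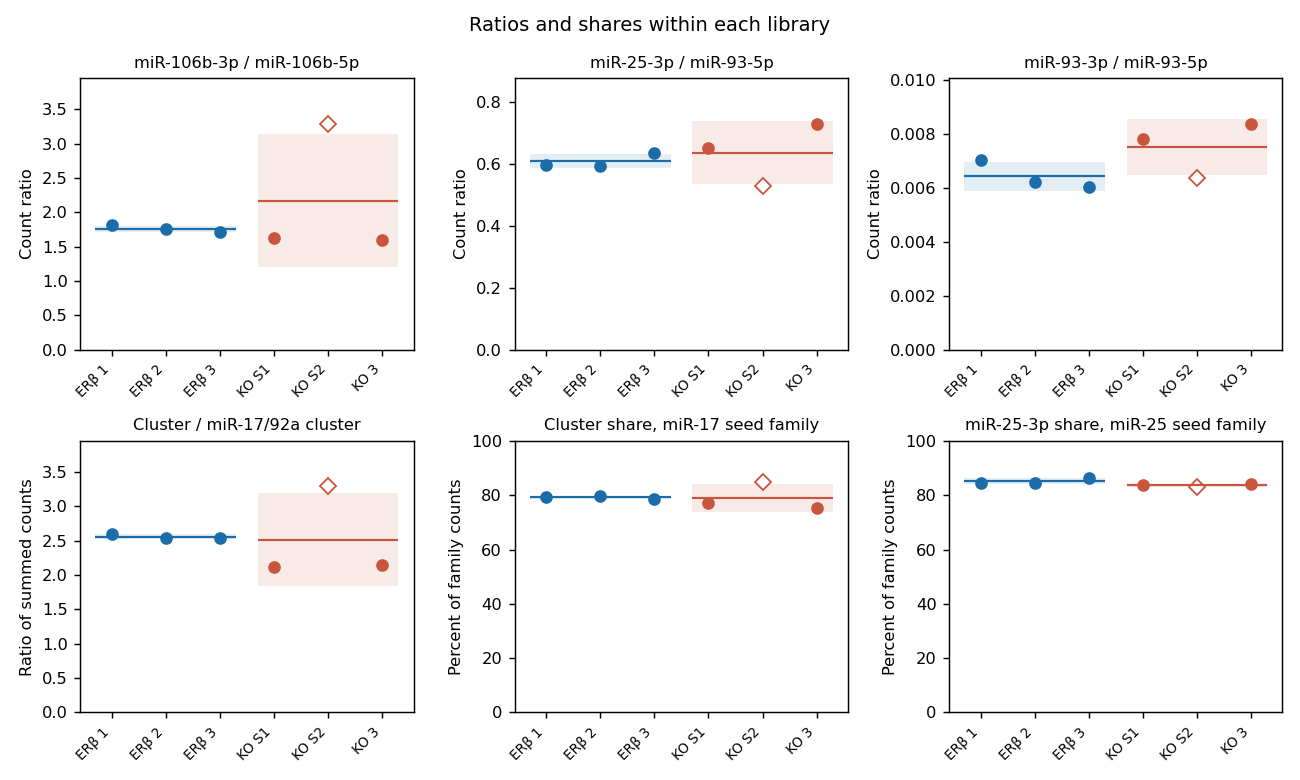
Count ratios and shares within each library (vertical axes, starting at 0) for ERβ libraries 1, 2 and 3 and knockout libraries S1, S2 and 3, with the mean (line) and SD (band) of the plotted values; the open diamond is knockout library S2. S2 reaches 3.29 for miR-106b-3p over miR-106b-5p, where the other libraries lie between 1.59 and 1.81.

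The cluster supplied most of the counts of both seed families. Of counts with the miR-17 seed, miR-93-5p and miR-106b-5p carried 79.5, 79.6 and 78.5% in ERβ libraries 1, 2 and 3, against 77.1, 85.0 and 75.4% in knockout libraries S1, S2 and 3. The widest 95% Wilson interval for this share was that of knockout library 3, 75.2 to 75.6%, and covers counting error only. The means were 79.2 ± 0.602% in ERβ cells and 79.1 ± 5.14% in knockout cells (SD, n = 3 each; exact permutation p = 1.0), and the difference of 0.083 percentage points became 3.01 without S2 (exact permutation p = 0.2). Of counts with the miR-25 seed, miR-25-3p carried 84.7, 84.7 and 86.5% in ERβ libraries 1, 2 and 3, against 83.9, 83.1 and 84.2% in knockout libraries S1, S2 and 3. The groups did not overlap, with S2 or without it. The means were 85.3 ± 1.07% in ERβ cells and 83.7 ± 0.534% in knockout cells (SD, n = 3 each). The difference was 1.57 percentage points (exact permutation p = 0.1), and 1.27 without S2 (exact permutation p = 0.2). With a library left out it ran from 0.95 to 1.89. The family's counts include those of miR-363-3p, which averaged 82 CPM in ERβ cells and 177 CPM in knockout cells. The part of miR-363-3p in this difference was not tested.

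The relatives that share the miR-17 seed moved in opposite directions. Of the 4 tested non-members, 3 rose and 1 fell, with S2 and without it, where 9.83% of all tested miRNAs rose and 13.3% fell (15.2% and 19.6% without S2). The other 2 listed, miR-519d-3p and miR-526b-3p, were listed at 0 in all 6 libraries. The most abundant, miR-20a-5p, had 4962, 4997 and 5187 CPM in ERβ libraries 1, 2 and 3, against 4312, 3295 and 4347 CPM in knockout libraries S1, S2 and 3. It rose by 0.34 ± 0.11 on the log2 scale (edgeR quasi-likelihood test, adjusted p = 0.0441), and S2 was the lowest library. miR-17-5p (0.40 ± 0.11) and miR-106a-5p (0.45 ± 0.12) rose as well. These 2 miRNAs differ only at the first base, so their counts may not separate them and their rises may not be independent. miR-20b-5p fell with a log2 fold change of -1.003 ± 0.08 (-0.96 without S2), to 284 CPM on average in ERβ cells, against 570 CPM in knockout cells. Without S2, miR-20a-5p, miR-17-5p and miR-106a-5p were at 0.22, 0.28 and 0.32, below the 0.39 of miR-93-5p, whereas over all libraries they were above its 0.21. These calls also depended on other libraries, since leaving out ERβ library 1, 2 or 3 left 0 of the family higher in each case. Calls fell over all tested miRNAs too, with 6.54, 6.44 and 6.12% higher in these fits, against 9.83% over all libraries.

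Of the 4 tested non-members with the miR-25 seed, 0 rose and 1 fell, and without S2 2 rose and 1 fell, beside the same shares of all tested miRNAs. Over all libraries 1 of those 4, miR-92b-3p, had a positive difference at an unadjusted p under 0.05 (0.0156), DESeq2 called 1 of the family higher and limma-voom 0, and miR-367-3p was listed at 0 in all 6 libraries. The one that fell was miR-363-3p, of the X-linked cluster, with a fold change on the log2 scale of -1.11 ± 0.10 (edgeR quasi-likelihood test, adjusted p = 7.94e-05), and -1.19 without S2. miR-92a-3p, the most abundant relative, averaged 1946 CPM in ERβ cells and 1892 CPM in knockout cells, a difference on the log2 scale of 0.040 ± 0.11 (adjusted p = 0.823) that was 0.17 without S2 (adjusted p = 0.0132). miR-92b-3p was at 0.38 ± 0.13 (adjusted p = 0.0617) and at 0.53 without S2 (adjusted p = 5.26e-05). miR-32-5p was at 0.17 ± 0.15 (adjusted p = 0.469) and at 0.0033 without S2 (adjusted p = 0.965).

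**Figure D5:**
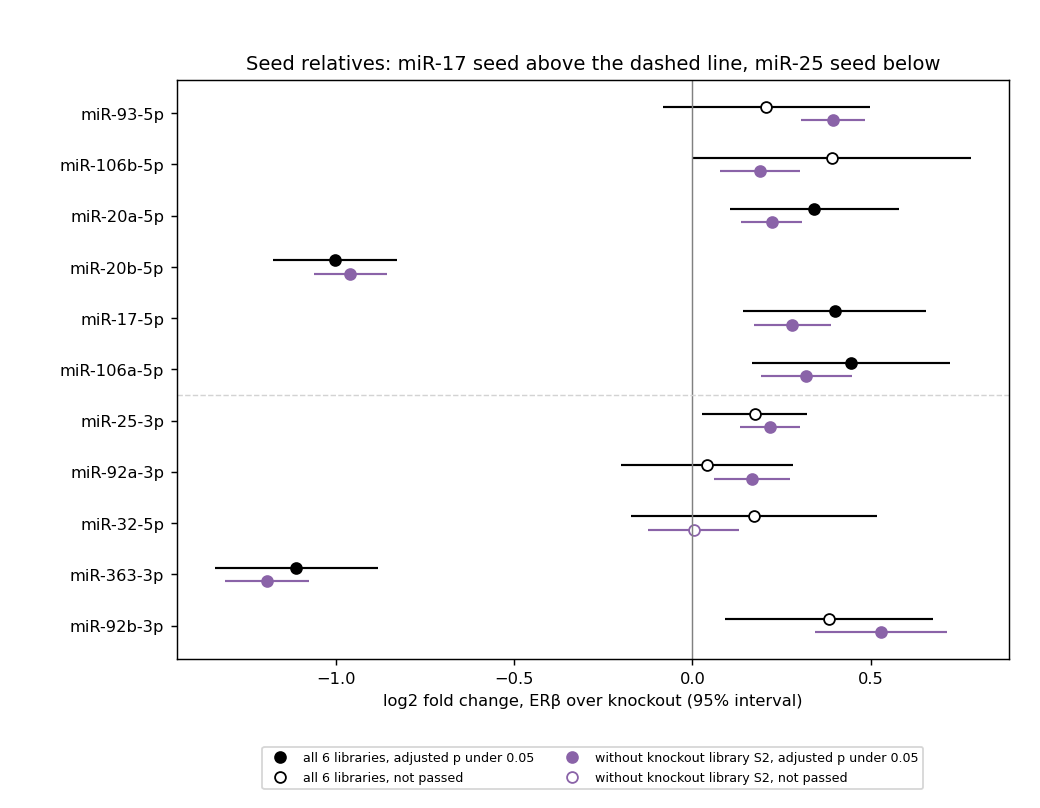
Log2 fold change, ERβ over knockout, with its 95% interval (horizontal axis) for the tested miRNAs with the miR-17 seed (above the dashed line) and the miR-25 seed (below it), over all 6 libraries (black) and without knockout library S2 (purple); filled points have an adjusted p under 0.05. miR-20b-5p and miR-363-3p lie near -1, apart from the others.

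Set against its paralogs, the cluster held 2.60, 2.54 and 2.55 times the summed counts of the miR-17/92a cluster in ERβ libraries 1, 2 and 3, against 2.11, 3.29 and 2.14 times in knockout libraries S1, S2 and 3. That sum includes miR-19b-3p and miR-92a-3p, at 5165 and 1919 CPM on average over all 6 libraries. Both are products of the X-linked cluster as well, and their counts do not separate the clusters. S2 was the highest library and S1 and 3 the lowest. The log2 ratio averaged 1.36 ± 0.02 in ERβ cells and 1.30 ± 0.36 in knockout cells (SD, n = 3 each; exact permutation p = 1.0), and the difference of 0.057 became 0.27 without S2 (exact permutation p = 0.2). Of 11 tested products of the miR-17/92a cluster, 3 rose and 0 fell, and their median was 0.26 on the log2 scale. Without S2, 4 rose and 1, miR-19b-3p, fell (-0.18, edgeR adjusted p = 0.00343), and the median was 0.13. miR-18a-5p was at 0.67 ± 0.13 over all libraries and at 0.53 without S2, above miR-17-5p and miR-20a-5p in both. Of 7 tested products of the X-linked cluster, 1 rose, namely miR-106a-5p, whose counts may not separate it from miR-17-5p. Falls were seen for 3 (miR-363-3p, miR-20b-5p and miR-106a-3p), and the median of the 7 was -0.39. Without S2, 2 rose and 4 fell, with a median of -0.43. The calls added without S2 were miR-92a-3p (0.17) and miR-19b-3p (-0.18), which are counted in both clusters. In the miR-15b/16-2 cluster, which lies in the cell-cycle gene SMC4, 0 of 4 passed (0 also at an unadjusted p under 0.05 and by DESeq2 and limma-voom), with a median of -0.022, and 0 of 4 without S2, with a median of -0.0097. Its most abundant product, miR-16-5p, which also has a hairpin elsewhere, averaged 83647 CPM in ERβ cells and 83896 CPM in knockout cells, a log2 fold change of -0.0043 (0.013 without S2). The medians stand beside -0.012 for all tested miRNAs, of which 9.83% rose and 13.3% fell (77 and 104). Without S2 the median of all tested miRNAs was 0.0034, and 15.2% rose and 19.6% fell. Over all libraries, the split of rises and falls was 123 and 70 with upper-quartile factors and 146 and 61 with library totals.

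The profiles over the 6 libraries nearest to those of the members were sought among 186 non-members averaging at least 100 CPM, by the root mean square difference of centred log2 CPM. Distances without S2 were computed for the same profiles over 5 libraries, after the data were seen. Nearest to miR-93-5p were miR-99b-3p (0.066, and 0.054 without S2) and miR-345-5p (0.073, and 0.078 without S2). Neither passed over all libraries, at 0.11 ± 0.15 and 0.13 ± 0.12 on the log2 scale, and both rose without S2, at 0.33 and 0.27. Nearest to miR-25-3p were miR-200c-5p (0.023, and 0.020 without S2) and miR-183-5p (0.027, and 0.029 without S2), of which miR-183-5p rose by 0.22 ± 0.07 on the log2 scale (edgeR quasi-likelihood test, adjusted p = 0.0442) and by 0.27 without S2. Nearest to miR-106b-5p were miR-374a-5p (0.084, and 0.080 without S2) and miR-934 (0.11, and 0.069 without S2), both of which rose, at 0.48 ± 0.13 and 0.42 ± 0.11, and at 0.33 and 0.30 without S2. Within the cluster, the distance of miR-106b-5p from the other members was 0.31 to 0.52 over all libraries and 0.017 to 0.15 without S2. Its distance from miR-93-5p, which shares its seed, was 0.42 over all libraries and 0.12 without S2, and that from miR-25-3p was 0.31 and 0.017, so its separation from the other members rested on S2.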

How the data were processed

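The authors deposited expected counts per mature miRNA, which are not whole in 6.33 to 7.27% of entries per library. Per the labels' protocols, libraries came from a QIAseq miRNA kit; FastQC, Trim Galore and GRCh38 are named in the submitters' processing notes. Not given in the sources used here were the aligner, the counter, the annotation release and whether molecular identifiers were collapsed. The Wilson intervals of shares cover counting error only, if reads are independent molecules. The intervals of fold changes also take in the spread between libraries. Columns were assigned by name; 2 knockout columns carry the number 1, are known by group only and are called S1 and S2. Every pair of libraries within a group had a chi-square per degree of freedom of 12.2 or more, so none was counted as a duplicate.

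Expected counts were rounded and fitted with edgeR 4.0.16 under R 4.3.3 (low counts removed by filterByExpr, minimum count 10 and total 15, TMM scaling, robust quasi-likelihood test, Benjamini-Hochberg adjustment over 783 miRNAs at 0.05) in 1 fit of all 6 libraries, and tested on simulated data first. Each standard error was derived from the fold change and the F statistic. Ratios have 0.5 added to each count and were compared with exact permutation tests (scipy 1.17.1); the interval level is 95%. Alternatives used DESeq2 1.42.0 and limma 3.58.1. A fit with the GC trend removed by loess (degree 1, span 0.75) was chosen after seeing the data.

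Named were all members, from each related list up to 3 non-members by smallest adjusted p and the most abundant, and the 2 nearest profiles to each of miR-93-5p, miR-25-3p and miR-106b-5p; other relatives were named after their values were seen. The members and lists were chosen with earlier results of these data known. Figures were drawn with matplotlib 3.10.9.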

Additional observations from a re-analysis of the deposited data

How the results depend on the processing

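The count of members past the threshold, 0 higher and 0 lower, was 2 higher with upper-quartile factors, with library totals, without a filter on low counts and with the GC trend removed (chosen after seeing the data), 1 higher with a filter of 10 CPM in 3 libraries, and 0 to 4 higher when a library was left out, 4 only without knockout library S2. No fit called a member lower. Among all tested miRNAs, 77 of 783 were higher in the main fit. This became 123 of 783 with upper-quartile factors and 146 of 783 with library totals. It was 102 of 1864 without a filter and 62 of 399 with the 10 CPM filter. With the GC trend removed 90 of 690 were higher, and without S2 122 of 800. With any other library left out, 49 to 71 of 800 to 815 were higher. Upper-quartile factors moved the median log2 fold change of all tested miRNAs by 0.11 and library totals by 0.15. The fold change of miR-25-5p turned to 0.081, 0.12, 0.018, 0.0094, 0.022 and 0.046 with upper-quartile factors, library totals, no filter, the 10 CPM filter, the replicate block and the GC trend removed, and ran from -0.15 to 0.22 with a library left out; that of miR-93-3p ran from -0.031 to 0.067. With a library left out, the log2 differences ran from -0.18 to 0.053 for miR-25-3p over miR-93-5p, from -0.40 to 0.13 for the miR-106b arms, from -0.29 to 0.0012 for the miR-25 arms and from -0.053 to 0.27 for the cluster over the miR-17/92a cluster, and the cluster's share of the miR-17 seed family from -1.80 to 3.01 percentage points; the cause was not tested. All 7 ratios and shares kept their direction with counts as deposited.

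The miR-17 seed family had 5 higher without a filter, against 3, and 0 to 5 with a library left out. The miR-25 seed family had 2 higher with upper-quartile factors, library totals, the 10 CPM filter and the GC trend removed, 1 without a filter and with DESeq2, and 0 to 3 with a library left out. The miR-17/92a cluster had 7 higher with library totals, and 1 to 4 higher and 0 to 1 lower with a library left out; the X-linked cluster had 0 to 2 higher. In column names, replicate numbers 1 and 3 occur in both groups, while the sample titles number both groups 1 to 3. Which of S1 and S2 is titled replicate 2 is not known. Libraries with the same number in the column name did not all deviate together (correlations of -0.0957, 0.134 and 0.123). With ERβ library 2 the correlations were 0.083 for S1 and -0.035 for S2. The numbers were not taken to pair the libraries. With a replicate block 0 members were called, and the miR-17 seed family had 0 higher, the miR-17/92a cluster 1 and the X-linked cluster 0, while over all tested miRNAs 38 rose and 50 fell, against 77 and 104 without the block and 122 and 157 without S2. The block followed the column names and placed S1 and S2 together with ERβ library 1. It left ERβ library 2 without a knockout library, so that library did not inform the difference between the groups. The Poisson error of a count was at most 0.292% for miR-93-5p and miR-25-3p and 6.67% for miR-25-5p, if reads are independent molecules, which is not stated; the part of depth in the results was not tested.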
